A study of Mus musculus with 24 samples.

Results

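The 36 genes described here repair broken DNA or signal that it is broken. They were chosen by name from the pathways they belong to, and 36 of the 54446 gene identifiers in each count file are members. The choice was made with earlier results of these data known. Their counts beside the shares of all genes are therefore descriptions and no test of the list. Of the members, 8 act in checkpoint signalling (Atm, Atr, Chek1, Chek2, Mdc1, Trp53bp1, Topbp1 and Clspn), 6 in break sensing and resection (Mre11a, Rad50, Nbn, Rbbp8, Exo1 and Blm) and 8 in homologous recombination (Brca1, Bard1, Palb2, Brca2, Rad51ap1, Rad54l, Xrcc2 and Xrcc3). Another 8 belong to the Fanconi pathway (Fanca, Fancb, Fancc, Fancd2, Fanci, Fancg, Fancm and Brip1), 5 to end joining (Xrcc4, Xrcc5, Xrcc6, Lig4 and Prkdc), and Parp1 makes poly(ADP-ribose) at breaks.

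When both strands of the DNA break, the Mre11a-Rad50-Nbn complex binds the ends and calls in the kinase Atm, while single-stranded DNA at stalled forks or cut-back ends calls in Atr with its activator Topbp1 and its adaptor Clspn. The ends are then either joined directly by the Ku proteins, Prkdc and Lig4, or cut back by Rbbp8 and Exo1 and copied from the sister chromatid by Brca1, Brca2 and their partners, a route open to cells that have copied their DNA. Genes of the second route and of the Fanconi pathway are known to be transcribed mostly in dividing cells, by E2F factors, whereas end joining works in resting cells too. N6-methyladenosine (m6A) is a base mark on mRNA that the reader protein Ythdf2 binds, and mRNA bound by Ythdf2 is known to be degraded faster.

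The study profiled CD11b+ myeloid cells taken from MC38 tumours, a mouse colon carcinoma line grown under the skin of adult C57BL/6J mice of both sexes. WT mice carried the Ythdf2 fl/fl alleles without Cre, and cKO mice carried the same alleles with Cre driven from the Lyz2 (lysozyme) locus, which is active in monocytes, macrophages and neutrophils. Tumours of each genotype got 1 local dose of 20 Gy (IR) or were left unirradiated (Ctrl), which the study's methods describe as sham treatment. Cells were collected 3 days later. Each of these 4 groups has 3 Input libraries (poly(A) RNA) and 3 IP libraries (RNA pulled down with an antibody to m6A), 24 in all, each from pooled mice. The study's methods call replicates of this kind technical in one place and biological in another, so the p-values measure only the spread between these samples. In bulk cells, fewer cells of a type and less RNA per cell cannot be told apart.

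The labels were checked before any comparison. Input libraries held 65.2 to 83.7 M gene counts (M, 1e6) and IP libraries 68.8 to 86.4 M. The Inputs labelled cKO held more Ythdf2 reads than those labelled WT, by 0.88 ± 0.04 on the log2 scale (SE, n = 3 against 3, adjusted p = 6e-13) without irradiation and by 1.08 ± 0.04 (adjusted p = 1.6e-14) with it, so its gene count goes against the label. A count over the whole gene does not show whether an exon was deleted, and WT and cKO below are names of labels. Lyz2, whose locus carries the Cre, was lower by 6.10 ± 0.03 in cKO Ctrl against WT Ctrl Inputs (adjusted p = 2e-29). In the IP libraries labelled WT IR it stood 7.96 below the WT IR Inputs, and in those labelled cKO IR 5.48 above the cKO IR Inputs, so the 6 irradiated IP libraries carry the Lyz2 level of the other genotype. For these libraries the results below are given by label or as the mean over both genotypes, which does not depend on the genotype label. The 5 markers of myeloid identity summed to 3480 to 24400 CPM (counts per 1e6 gene counts) over the Inputs, Lyz2 making most of the range, while those of T and NK cells summed to at most 2.82, B cells to at most 1.15, and fibroblasts to at most 3.35 CPM. The 5 epithelial markers summed to 5.57 to 8.05 CPM in every Input library. Erythroid markers reached 20.3 to 23.2 CPM in the 3 WT IR Inputs and at most 0.0668 CPM in the other 9.

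Members' values are CPM of TMM-scaled libraries, while marker sums are counts per 1e6 gene counts without that scaling. All 36 members passed the count filter (10 counts in 3 libraries), with 25 to 10003 counts per Input library and 16 to 12124 per IP library. Per kilobase of exon, the member at the highest level in WT Ctrl Input was Parp1, at 23.5 ± 0.736 CPM per kb (SD, n = 3). It was followed by the break sensor Rad50 at 11.6 ± 0.267, and by the chromatin adaptor Mdc1 at 7.96 ± 0.485 and the Rad50 partner Nbn at 7.85 ± 0.388, which did not differ beyond their spread. The lowest were the checkpoint kinase Chek1 at 0.325 ± 0.0447, the recombination gene Xrcc3 at 0.322 ± 0.13 and the Fanconi core gene Fancb at 0.293 ± 0.0535 CPM per kb, again within their spread. The median was 1.18 CPM per kb over the members against 2.71 over all genes tested. In the Ku pair that binds broken ends, Xrcc6 stood at 3.43 ± 0.251 and Xrcc5 at 0.566 ± 0.112 CPM per kb. On the genome, 21 members overlap a gene on the opposite strand, 9 overlap one on their own strand and 11 overlap none, and the counting used strand.

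In 13 members with m6A peaks in all 4 labelled groups, a window of 29 bases around a GGAC core, lying wholly in an exon, was read from the GRCm38 (mm10) genome. GGAC is the core of the sequence at which the m6A writer complex is known to act, and its A is the base that can be methylated. Of these windows, 6 are shown because the results below turn on their genes. The A lies in coding sequence in all but Topbp1, where it lies in the 3′ UTR. Capitals mark GGAC and the base after it, on the strand of the transcript, 5′ to 3′.
Rad51ap1, chr6:126927646-126927674, minus strand, exon 6 of 9: cacagaggagggGGACGcctcgagtgttg
Clspn, chr4:126560196-126560224, plus strand, exon 3 of 26: aggacactctgtGGACTtcaccaccggca
Brip1, chr11:86061751-86061779, minus strand, exon 20 of 20: gacacatcactgGGACCttgccttcagtc
Brca1, chr11:101525729-101525757, minus strand, exon 10 of 23: caggtgttcaaaGGACTcctgacaacata
Exo1, chr1:175905813-175905841, plus strand, exon 14 of 15: gtctagttctatGGACTctttttctacaa
Topbp1, chr9:103350050-103350078, plus strand, exon 28 of 28: catacatctgaaGGACTatgcttcagatt
The A lay at -1 base from the peak summit in the Clspn and Exo1 windows, negative being upstream. In the other 4 windows it lay at 30 (Rad51ap1), -254 (Brip1), -347 (Brca1) and 268 (Topbp1) bases. A match is a description of the letters and does not place the methylated base.

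Irradiation of WT tumours was followed 3 days later by lower transcript levels of 21 of the 36 members in the Input, and by higher levels of 2. Over all 16090 genes tested, 17.0% were called lower and 14.7% higher (edgeR's quasi-likelihood test, adjusted p under 0.05). The median log2 change was -0.32 over the members and 0.01 over all genes. By role, 6 of 8 Fanconi genes and 6 of 8 homologous recombination genes fell, against 4 of 8 checkpoint genes, 3 of 6 sensing and resection genes and 1 of 5 end joining genes. Summed over the 36, the level went from 658 to 672 CPM in WT Ctrl to 583 to 596 CPM in WT IR.

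**Figure D1:**
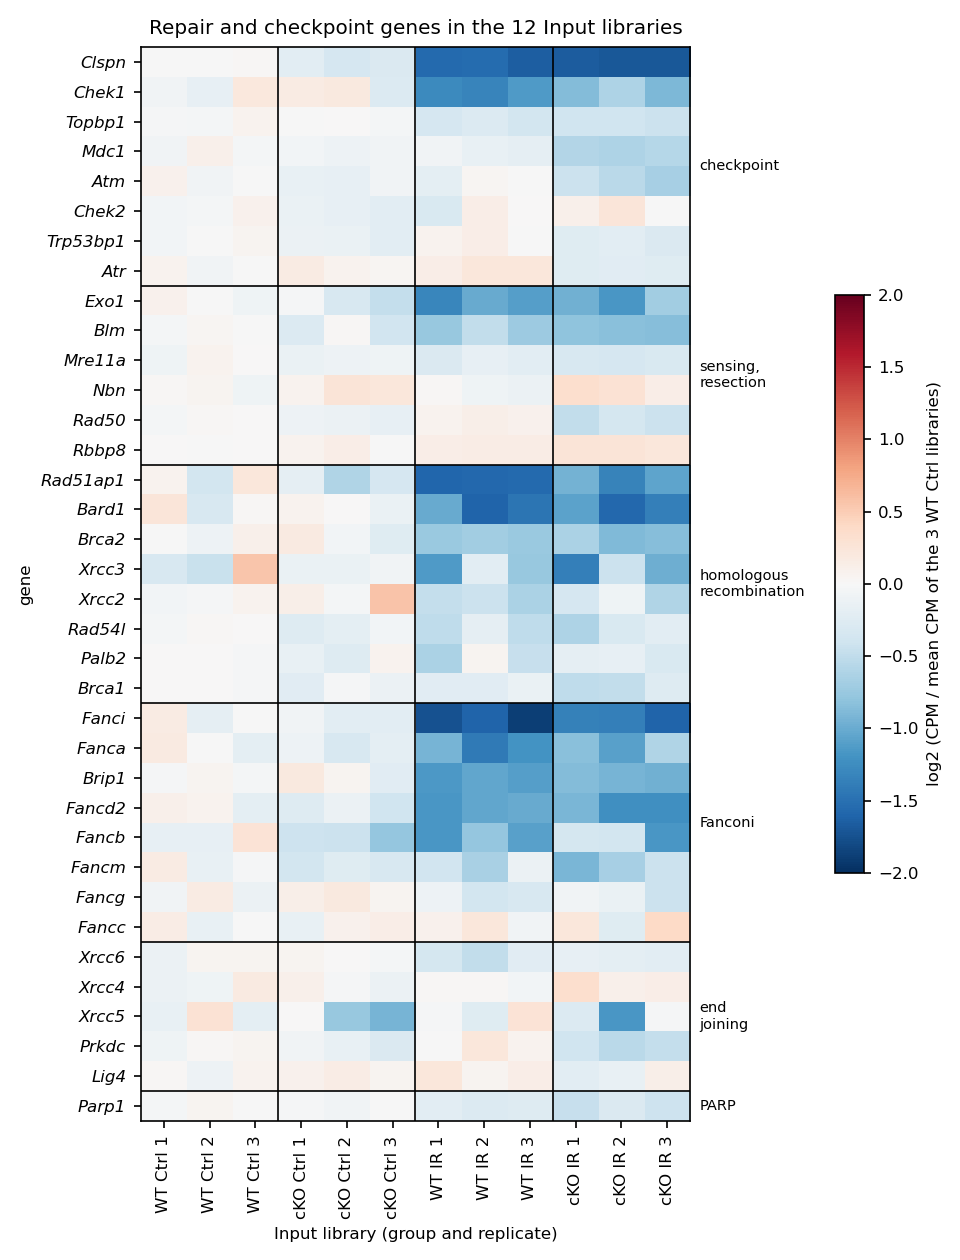
Level of each of the 36 genes (rows, grouped by role) in each of the 12 Input libraries (columns, group and replicate), as log2 of its CPM over the mean of the 3 WT Ctrl libraries. The 6 irradiated libraries lie below every control library for Fanci, Clspn, Rad51ap1 and Bard1, while Rbbp8, Nbn and Xrcc4 stay near 0 or above in them.

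Fanci, the partner that is monoubiquitinated together with Fancd2 at crosslinks, had the largest fall. Fanci (ENSMUSG00000039187, chr7:79391929-79450264, GRCm38) stood at 4.81, 3.75 and 4.25 CPM in the WT Ctrl Inputs and at 1.28, 1.41 and 1.16 CPM in WT IR. All 3 irradiated libraries lay below every control library, and the log2 change was -1.73 ± 0.14 (SE, n = 3 against 3, adjusted p = 9.2e-09). Clspn (ENSMUSG00000042489, chr4:126556935-126593903), the adaptor through which Atr activates Chek1, stood at 19.2, 19.3 and 19.7 CPM in WT Ctrl and at 6.60, 6.69 and 6.16 CPM in WT IR. The groups were far apart relative to a spread of 0.27 and 0.283 CPM (SD), with a change of -1.58 ± 0.07 (adjusted p = 3.7e-13), 2.99-fold lower.

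Rad51ap1 (ENSMUSG00000030346, chr6:126923050-126939587), which acts in strand invasion, went from 4.94, 3.65 and 5.53 CPM to 1.56, 1.58 and 1.60 CPM. The irradiated libraries were close together and all below the controls, which varied more, and the change was -1.57 ± 0.17 (adjusted p = 2.5e-07). Bard1 (ENSMUSG00000026196, chr1:71027498-71103146), the obligate partner of Brca1, went from 3.37, 2.30 and 2.92 CPM to 1.43, 0.948 and 1.04 CPM. Its groups did not overlap either, and its change was -1.33 ± 0.19 (adjusted p = 1.7e-05). Chek1 (ENSMUSG00000032113, chr9:36708482-36727065), the kinase that acts after Atr, went from 1.43, 1.35 and 1.74 CPM to 0.623, 0.602 and 0.688 CPM, a change of -1.24 ± 0.22 (adjusted p = 0.00017). At these low levels the SEs of Chek1 and Bard1 were larger than that of Clspn, and the groups of both genes did not overlap. Genes given by library in this comparison were picked for the largest called changes in each direction. Lack of overlap between their groups is therefore no further evidence, and the share of all genes without such overlap was not computed.

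The 2 members that rose did so by little. Atr, the kinase of the single-strand branch, stood at 19.3, 17.4 and 18.2 CPM in WT Ctrl and at 20.0, 21.4 and 21.5 CPM in WT IR, a change of 0.20 ± 0.06 (adjusted p = 0.016). Rbbp8, also called CtIP, which starts the cutting back of ends, went from 52.4, 51.8 and 52.6 CPM to 57.1, 58.1 and 58.2 CPM (0.15 ± 0.04, adjusted p = 0.01). For both genes the irradiated libraries lay above every control library. With offsets that take out each library's trend with exon length, neither gene was called.

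Within the Fanconi pathway, the core gene Fanca fell by 1.17 on the log2 scale, Brip1, a helicase that binds Brca1, by 1.10, and Fancd2, the ubiquitinated partner of Fanci, by 1.06. Fancb fell by 1.0 and Fancm, which moves the pathway's complex along DNA, by 0.36. Fancg (-0.26) and Fancc (0.09) were not called. In homologous recombination Brca2, the partner of Palb2, fell by 0.73, Xrcc2 by 0.51, Rad54l by 0.39 and Brca1 by 0.19. Xrcc3 (-0.64, adjusted p = 0.16) and Palb2 (-0.31, adjusted p = 0.13), the bridge between Brca1 and Brca2, were not called.

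Among the genes of sensing and resection, the nuclease Exo1 fell by 1.13, the helicase Blm by 0.65 and the nuclease Mre11a by 0.22, whereas Rad50 (0.09) and Nbn (-0.06) were not called. The members of the Mre11a-Rad50-Nbn complex thus had calls in 1 case of 3. In the checkpoint branch Topbp1 fell by 0.33 and Mdc1 by 0.13, while the values of Atm (-0.05), Chek2 (-0.04) and Trp53bp1 (0.06) did not pass the test. In end joining only Xrcc6 was called, with a fall of 0.35. Prkdc, the kinase recruited by Ku, had a value of 0.10, Lig4, the ligase of the route, 0.14, its cofactor Xrcc4 0.00 and Xrcc5 0.03. Parp1 fell by 0.24. Leaving out 1 library at a time ended the calls of Atr, Brca1, Fancb, Fancm, Mdc1 and Xrcc2, with adjusted p up to 0.25 (Mdc1), and left 17 to 21 members lower. Each of the 6 libraries ended at least 1 of these calls.

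**Figure D2:**
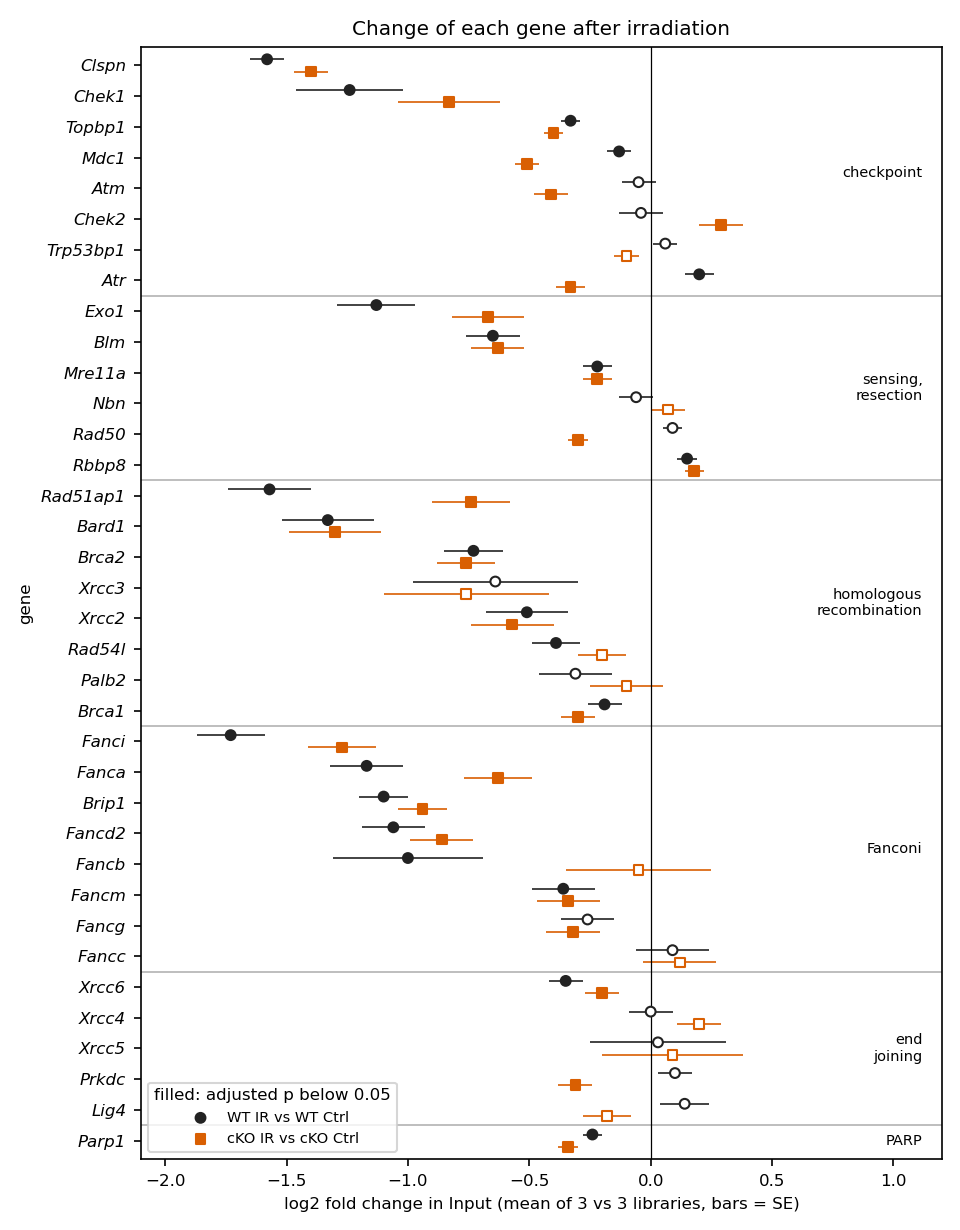
Log2 fold change of each gene after irradiation (x axis) in WT and in cKO Inputs, with bars for the SE and filled points for an adjusted p below 0.05. The WT points of Fanci, Clspn, Rad51ap1 and Bard1 lie farthest to the left, and most end joining genes lie near 0.

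The same comparison in the libraries labelled cKO called 24 members lower and 2 higher, where 23.8% and 21.8% of all genes were called. The median was -0.34 over the members and 0.01 over all genes. Clspn went from 16.7, 15.4 and 15.8 CPM in cKO Ctrl to 6.11, 5.97 and 6.01 CPM in cKO IR (-1.40 ± 0.07, adjusted p = 2.1e-12). Bard1 went from 3.0, 2.87 and 2.62 CPM to 1.36, 0.969 and 1.11 CPM (-1.30 ± 0.19, adjusted p = 1.1e-05). For each of them every irradiated library lay below every control library, as in WT.

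Fanci went from 4.06, 3.70 and 3.68 CPM to 1.68, 1.66 and 1.40 CPM (-1.27 ± 0.14, adjusted p = 2.6e-07). Brip1 went from 9.41, 8.54 and 7.0 CPM to 4.47, 4.32 and 4.19 CPM (-0.94 ± 0.10, adjusted p = 2.1e-07). Fancd2 went from 4.48, 4.91 and 4.06 CPM to 2.84, 2.29 and 2.27 CPM (-0.86 ± 0.13, adjusted p = 1.2e-05). None of the 3 Fanconi genes overlapped between control and irradiated libraries. The 2 genes called higher were Chek2, the kinase that acts after Atm, which went from 9.87, 9.66 and 9.37 CPM to 11.6, 12.9 and 10.8 CPM (0.29 ± 0.09, adjusted p = 0.015), and Rbbp8, which went from 55.1, 57.3 and 51.9 CPM to 62.3, 62.5 and 61.2 CPM (0.18 ± 0.04, adjusted p = 0.0012). Their irradiated libraries also stood clear of the controls. All genes given by library here were picked for their large called changes, so lack of overlap is no further evidence. The share of all genes without overlap between these groups was not computed. Leaving out 1 library at a time ended the calls of Chek2, Fancg, Fancm, Xrcc2 and Xrcc6 (adjusted p up to 0.20, Fancm), each of the 6 libraries ending at least 1.

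In both genotypes, 19 members were called lower and Rbbp8 higher, where 10.3% of all genes were lower and 7.27% higher in both. Atr was called higher in WT and lower in cKO, and 8 members were called in neither. Calls of a fall in WT only were made for 2 members (Rad54l and Fancb), and 4 members (Atm, Rad50, Prkdc and Fancg) were called lower and Chek2 higher in cKO only, which alone does not show a difference between genotypes. Over the 6 control and 6 irradiated Inputs of both genotypes together, every irradiated library lay below every control library for 16 members and above for none, where 8.45% of all genes lay below. The 16 were Chek1, Topbp1, Clspn, Mre11a, Exo1, Blm, Bard1, Brca2, Rad51ap1, Xrcc2, Fanca, Fancd2, Fanci, Brip1, Xrcc6 and Parp1. The groups of Atm, Atr, Rad50, Nbn, Prkdc, Lig4 and Xrcc4 overlapped.

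Other lists moved in the same libraries. The 15 markers of cycling cells, such as Mki67 and Top2a, summed to 764 to 774 CPM in WT Ctrl and 279 to 282 CPM in WT IR, and to 637 to 650 CPM in cKO Ctrl and 286 to 299 CPM in cKO IR. All 15 were called lower in WT and 14 of 15 in cKO. Monocyte markers went from 747 to 802 CPM to 235 to 294 CPM in WT and from 626 to 664 CPM to 377 to 385 CPM in cKO, and neutrophil markers from 1780 to 1870 CPM to 440 to 476 CPM and from 881 to 888 CPM to 469 to 494 CPM. The 10 p53 target genes were all called higher in each genotype, from 618 to 633 CPM to 1040 to 1120 CPM in WT and from 624 to 637 CPM to 1170 to 1180 CPM in cKO. The 6 markers of myeloid progenitors summed to 69.2 to 75.0 CPM in WT Ctrl and 20.3 to 23.1 CPM in WT IR, and to 30.5 to 32.3 CPM in cKO Ctrl and 14.7 to 15.3 CPM in cKO IR. Of these 6 markers, 4 were called lower and 1 higher in WT, and 4 lower and 0 higher in cKO. Kit, which did not fall, stood at 15.8 to 17.4 CPM in WT Ctrl and 19.7 to 21.8 CPM in WT IR. In cKO Ctrl it stood at 13.8 to 14.1 CPM and in cKO IR at 13.9 to 14.4 CPM. Mpo, a granule enzyme of early myeloid cells, stood at 32.9 to 35.4 CPM in WT Ctrl and at most 0.0737 CPM in WT IR. Elane, a granule protease, stood at 9.24 to 11.3 CPM and at 0 in all 3 WT IR libraries. In cKO, Mpo stood at 10.8 to 11.5 CPM and at most 0.0713 CPM. Dendritic markers went the other way, from 635 to 645 CPM to 868 to 878 CPM in WT, with 4 of 4 tested called higher, and from 725 to 730 CPM to 926 to 965 CPM in cKO, with 2 of 4 higher and 1 lower. Mitochondrial genes took 6.13 to 7.25% of the counts in WT IR Inputs, 4.61 to 4.84% in WT Ctrl, 5.34 to 5.51% in cKO Ctrl and 3.39 to 3.75% in cKO IR. The part of these shifts in the members' values was not tested.

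A list of 55 other repair and checkpoint genes was read in the same way. In WT, 24 of the 55 were called lower and 2 higher, with a median of -0.16. Rad51c, a gene of homologous recombination (-2.21), Cdc25c, a phosphatase that starts mitosis (-1.66), and Timeless, a fork protection factor (-1.28), fell most, and Rad51d (0.32) and the nuclease Dclre1c (0.29) rose. In cKO, 26 fell and 3 rose, with a median of -0.25. The largest falls were those of Cdc25c (-2.08), Polq, the polymerase of alternative end joining (-1.02), and Timeless (-1.02), and the genes that rose were Rpa3 (0.62), Rad51d (0.30) and Brcc3 (0.18).

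Promoters were compared because many members fell together. RefSeq promoters (250 bases before to 50 after the transcription start, GRCm38) were matched for 29 members, with 31 promoters among them. An E2F-type motif, any of TTTCGCGC, TTTGGCGC, TTTCCCGC and TTTGCCGC on either strand, was found in 25.8% of the 31 promoters and in 2.26% of all 32851. It was held by 8 members. The windows of 30 bases below are written on the strand of the gene, 5′ to 3′, with the motif in capitals, which reads GCGGGAAA or GCGCGAAA where it lies on the other strand.
Bard1, chr1:71103163-71103192: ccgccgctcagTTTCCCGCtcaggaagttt
Brca2, chr5:150522442-150522471: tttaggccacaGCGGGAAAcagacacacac
Chek2, chr5:110839820-110839849: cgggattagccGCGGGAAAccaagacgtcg
Clspn, chr4:126556990-126557019: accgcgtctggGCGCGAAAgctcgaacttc
Fancg, chr4:43010335-43010364: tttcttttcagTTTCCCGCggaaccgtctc
Mdc1, chr17:35841471-35841500: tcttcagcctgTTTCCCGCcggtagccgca
Topbp1, chr9:103305187-103305216: ccgctcggttgGCGCGAAAgtcggttcccg
Xrcc6, chr15:82016312-82016341: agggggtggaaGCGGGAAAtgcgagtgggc
Of these 8 genes, 6 fell in WT IR, all but Chek2 and Fancg, as did 12 of the 21 members with a promoter that lacked these letters. CCAAT, the NF-Y box, was found in 61.3% of the member promoters and 37.41% of all, and TTTGAA, the core of the CHR element of late cell cycle genes, in 3.2% and 17.89%. The motifs are counted on both strands and may overlap other motifs. The 32851 promoters were not limited to the genes tested here, and base composition was not matched. These shares therefore do not set the members apart from other expressed genes, and the part of the motifs in the falls was not tested.

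Without irradiation, the genotype labels differed little over these genes. A single member, Clspn, was called lower in cKO Ctrl than in WT Ctrl and none higher, where 7.61% and 8.05% of all genes were called by edgeR. At an unadjusted p under 0.05 there were 6 lower and 1 higher, and DESeq2 called 3 lower and 0 higher. Clspn stood at 16.7, 15.4 and 15.8 CPM in cKO Ctrl, below each of its 3 WT Ctrl values, and differed by -0.28 ± 0.06 (adjusted p = 0.0031). The sum over cycling markers was also lower, and 10 of those 15 markers were called lower. So were 5 of 6 neutrophil and 5 of 6 myeloid progenitor markers, while 5 of 6 macrophage markers were called higher, and the part of these shifts in the value of Clspn was not tested. Of the 55 other repair genes, Polq was lower (-0.38), and Dna2 (0.18), Parp3 (0.30) and Atrip (0.31), the partner of Atr, were higher.

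Between the irradiated groups, 8 members had lower and 2 had higher levels in the Inputs of cKO IR, relative to WT IR, where 23.8% of all genes were lower and 23.9% higher. The members' counts therefore stood near the background in one direction and below it in the other. Prkdc stood at 17.8, 20.8 and 18.7 CPM in WT IR and at 13.6, 12.3 and 12.8 CPM in cKO IR (-0.57 ± 0.07, adjusted p = 2.3e-06). Rad50 stood at 65.7, 67.5 and 66.3 CPM and at 44.1, 49.0 and 46.3 CPM (-0.52 ± 0.04, adjusted p = 6.1e-09). Both genes were lower in every cKO IR library than in any WT IR library.

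Atm went from 22.3, 26.0 and 25.4 CPM in WT IR to 18.8, 17.5 and 16.0 CPM in cKO IR (-0.50 ± 0.07, adjusted p = 6.1e-06). Mdc1 went from 56.3, 53.5 and 52.1 CPM to 39.4, 38.4 and 39.8 CPM (-0.46 ± 0.05, adjusted p = 1e-07). Atr went from 20.0, 21.4 and 21.5 CPM to 15.4, 15.7 and 15.5 CPM (-0.43 ± 0.06, adjusted p = 5.9e-06). The values of the kinases Atm, Atr and Prkdc and the adaptor Mdc1 did not overlap between the labels. These genes were picked for their large called differences, so the lack of overlap is no further evidence. The share of all genes without overlap between these labels was not computed. Trp53bp1, which holds ends back from resection, differed by -0.31, Brca1 by -0.22 and Parp1 by -0.14. Rad51ap1, at 1.56, 1.58 and 1.60 CPM against 2.44, 1.87 and 2.27 CPM, was higher (0.47 ± 0.17, adjusted p = 0.03), as was Nbn, at 20.1, 18.8 and 18.3 CPM against 25.0, 24.2 and 21.9 CPM (0.31 ± 0.07, adjusted p = 0.0006). Leaving out 1 library (WT IR replicate 2 or 3, or any cKO IR replicate) ended the calls of Brca1, Parp1 or Rad51ap1 (adjusted p up to 0.12, Rad51ap1).

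Markers of cell types moved in this comparison too. Of 15 cycling markers, 10 were called higher in cKO IR and 2 lower, and of 6 macrophage markers 4 higher and 1 lower. The 5 monocyte markers were all called higher, and the 3 erythroid markers tested were called lower. Of 6 neutrophil markers, 4 were called lower and 1 higher. The neutrophil sum did not fall, at 440 to 476 CPM in WT IR and 469 to 494 CPM in cKO IR. The part of these markers' shifts in the members' values was not tested.

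The difference between irradiated genotypes also moved with exon length. Exon length is the sum over all exons of all annotated transcripts of a gene, merged where they overlap. It is at least that of any single transcript, was 23629 bases for Atr and 14164 for Trp53bp1, and was also used for levels per kilobase. Adjusted values depend on this choice of length, and no other was tried. Over coding genes the median change between irradiated genotypes went from 0.35 for the 1721 genes with at most 2 kb of exon to -0.34 for the 1233 genes with more than 10 kb. The rank correlation of change and length was -0.47 over 12822 coding genes and -0.38 over the 36 members, all measured in the same 6 libraries. With each library's offsets adjusted for exon length, 4 members were called lower, Rad50 (-0.47), Mdc1 (-0.32), Atm (-0.26) and Prkdc (-0.25), and 5 higher, Fanca (0.52), Rad51ap1 (0.49), Rbbp8 (0.40), Brip1 (0.32) and Topbp1 (0.18), against 20.3% and 21.2% of all genes. Atr (0.07, adjusted p = 0.39) and Trp53bp1 (0.03, adjusted p = 0.7) changed sign. So did Topbp1, which stood at 49.9, 52.1 and 48.5 CPM in WT IR and at 47.6, 47.5 and 46.9 CPM in cKO IR and was not called without the adjustment (-0.08, adjusted p = 0.12), but was called lower when genes needed at least 50 counts in 3 libraries (-0.10, adjusted p = 0.044). The falls after irradiation depended less on this adjustment, with 21 members lower and 0 higher in WT (17.8% and 13.7% of all genes) and 19 lower and 1 higher in cKO (21.3% and 20.8%).

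**Figure D3:**
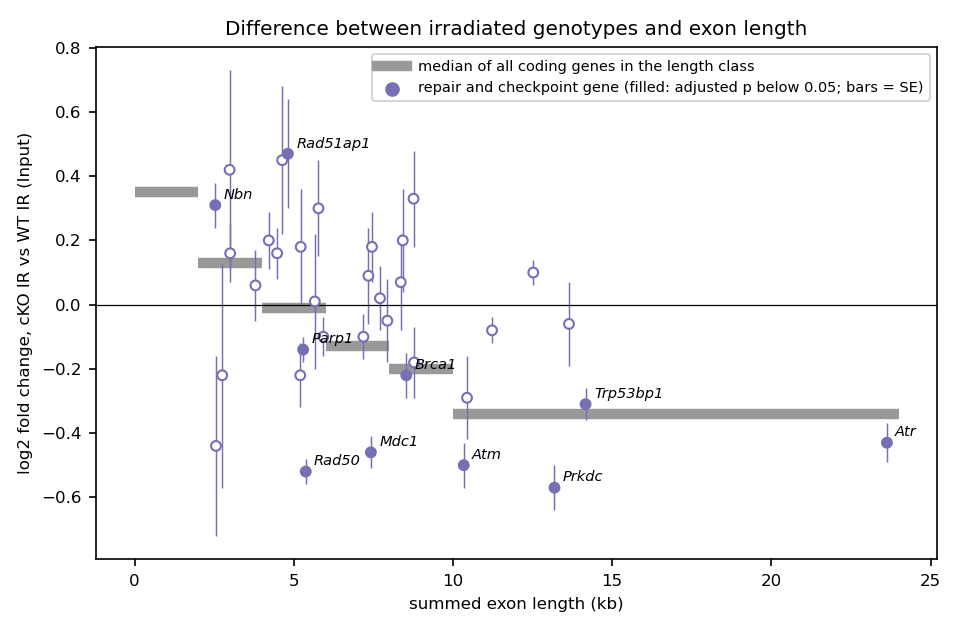
Log2 difference between cKO IR and WT IR Inputs (y axis) against summed exon length in kb (x axis) for the 36 members, with the median over coding genes in each length class. The class medians go from 0.35 at up to 2 kb to -0.34 above 10 kb, and Prkdc, Atm, Atr and Trp53bp1 lie among the long genes.

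The effect of irradiation differed between the genotype labels for 6 members in the interaction test, 5 with a lower and 1 with a higher value in cKO, where 15.2% and 15.0% of all genes were called. Atr rose in WT and fell in cKO, from 20.5, 19.3 and 18.8 CPM to 15.4, 15.7 and 15.5 CPM, and its effects differed by -0.53 ± 0.09 (adjusted p = 8.3e-05). Prkdc, at 17.1, 16.2 and 14.7 CPM in cKO Ctrl, differed by -0.41 ± 0.10 (adjusted p = 0.005). Rad50, at 58.3, 57.8 and 55.6 CPM in cKO Ctrl, differed by -0.39 ± 0.06 (adjusted p = 5.6e-05). These 3 genes and Mdc1 (-0.38) and Atm (-0.36) fell in cKO, and of the 5 only Mdc1 had also fallen in WT. Rad51ap1 fell in both, less so in cKO (4.17, 3.11 and 3.74 CPM to 2.44, 1.87 and 2.27 CPM), with a difference of 0.83 ± 0.23 (adjusted p = 0.0089). With the length adjustment Rad50 (-0.33) and Mdc1 (-0.25) were still called lower, and 6 members were called higher, Rad51ap1 (0.87), Fanca (0.71), Exo1 (0.63) and Clspn (0.30) among them, where 9.24% of all genes were lower and 12.6% higher. Of the 15 cycling markers, 13 had a higher value in the interaction and 1 a lower one.

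Most members' transcripts were enriched by the m6A antibody. In WT Ctrl, IP over Input was called above 0 for 27 of the 36 members and below 0 for 6, where 38.1% of 17373 genes were called higher and 37.5% lower, and the median log2 ratio was 1.23 over the members and 0.02 over all genes. The counts were 28 and 4 in cKO Ctrl (37.8% and 36% of all genes), 27 and 4 with the label WT IR (37.0% and 36.5%), and 28 and 7 with the label cKO IR (36.9% and 36.9%). In all 4 groups, 27 members were enriched, among them all 8 homologous recombination genes and all 6 sensing and resection genes. IP and Input are scaled within their own libraries, so the ratio ranks genes against each other and gives no share of methylated molecules.

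**Figure D4:**
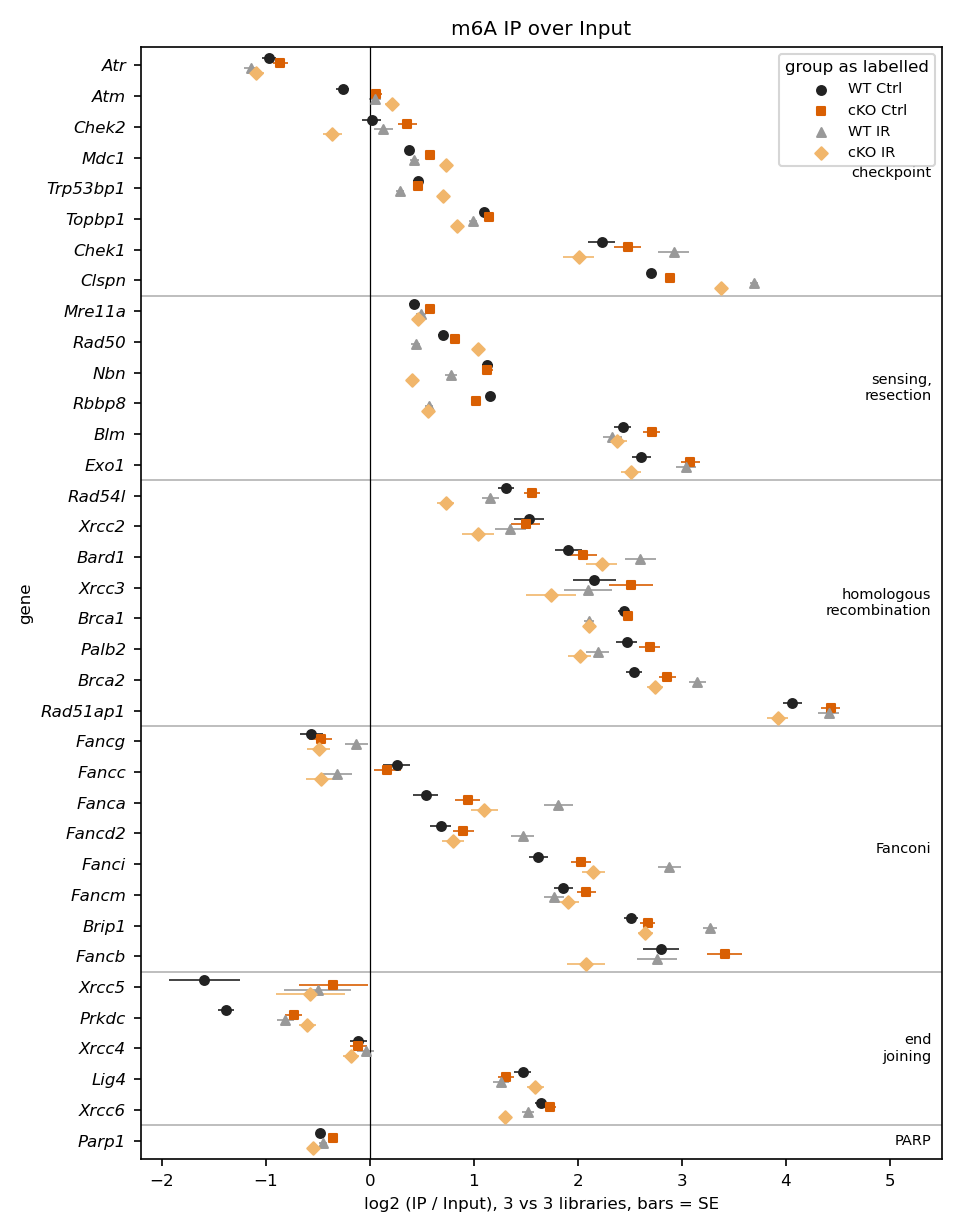
Log2 ratio of IP over Input for each gene (x axis) in the 4 groups as labelled, 3 against 3 libraries with bars for the SE. Rad51ap1 lies farthest to the right in every group, at 3.92 to 4.43, and Atr and Prkdc lie left of 0 in every group.

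Rad51ap1 had the highest ratio in WT Ctrl. It stood at 84.7, 87.0 and 81.8 CPM in the WT Ctrl IP libraries against 4.94, 3.65 and 5.53 CPM in the Inputs, a log2 ratio of 4.06 ± 0.09 (adjusted p = 3.7e-29). Fancb stood at 6.54, 6.52 and 6.70 CPM against 0.778, 0.784 and 1.06 CPM (2.80 ± 0.17, adjusted p = 1.1e-16). Clspn stood at 136 CPM in each of the 3 IP libraries against 19.2 to 19.7 CPM (2.70 ± 0.04, adjusted p = 8.8e-34). Exo1 stood at 23.2, 24.5 and 24.5 CPM against 3.89, 3.65 and 3.43 CPM (2.61 ± 0.09, adjusted p = 2.5e-23). In all 4 genes each IP library lay far above each Input library. As these genes were picked for the highest ratios, this separation is no further evidence.

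At the other end, Xrcc5 stood at 0.777, 0.205 and 0.568 CPM in the WT Ctrl IP libraries against 1.31, 1.78 and 1.26 CPM in the Inputs (-1.59 ± 0.34, adjusted p = 8.5e-05). Prkdc stood at 7.98, 6.99 and 7.18 CPM against 16.8, 18.2 and 18.6 CPM (-1.38 ± 0.08, adjusted p = 3.7e-17). Atr stood at 9.05, 10.8 and 10.5 CPM against 19.3, 17.4 and 18.2 CPM (-0.97 ± 0.07, adjusted p = 4.3e-14). Atr, Prkdc and Parp1 were below 0 in all 4 groups. The 15 cycling markers were all enriched in each group, with a median ratio of 1.91 in WT Ctrl.

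In unirradiated cells the ratio differed between the labels for 9 members, 8 higher and 1 lower in cKO Ctrl, against 10.1% and 12.5% of all genes. Prkdc, at 10.7, 11.0 and 9.76 CPM in the cKO Ctrl IP libraries, had the largest difference (0.66 ± 0.11, adjusted p = 2e-05), but was still below its Input. Exo1, at 27.5, 28.2 and 28.3 CPM, differed by 0.47 ± 0.13 (adjusted p = 0.006) and Fanci, at 17.4, 17.2 and 16.1 CPM against 13.2, 14.0 and 15.2 CPM in WT Ctrl, by 0.41 ± 0.13 (adjusted p = 0.025). The other 5 were Rad51ap1 (0.38), Atm (0.32), Brca2 (0.32), Mdc1 (0.20) and Clspn (0.19), and the lower one was Rbbp8 (-0.14). Of the cycling markers, 13 of 15 had a higher ratio in cKO Ctrl. Leaving out 1 of the 12 unirradiated libraries ended the calls of Brca2, Fanci, Mdc1, Rad51ap1 or Rbbp8, and left 6 to 10 members higher. Rbbp8 was also lost without the 6 irradiated IP libraries.

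After irradiation most members fell in the pulled-down RNA too. Over both genotypes, 29 members were called lower in IP and 1 higher, against 27.8% and 27.2% of all genes. Over all 6 control and 6 irradiated IP libraries, 25 members lay wholly below and none above, where 15.6% of all genes lay below. Rad51ap1 ranged from 81.8 to 87.0 CPM in the control IP libraries and from 34.1 to 37.8 CPM in the irradiated ones (-1.25 ± 0.05, adjusted p = 1.5e-20). Topbp1 ranged from 144 to 153 CPM and from 89.6 to 109 CPM (-0.58 ± 0.02, adjusted p = 3.6e-20). Prkdc was the gene called higher (0.24 ± 0.06, adjusted p = 0.00052). Read by label it went in opposite directions, from 6.99 to 7.98 CPM in WT Ctrl to 11.0 to 12.1 CPM under the label WT IR, and from 9.76 to 11.0 CPM in cKO Ctrl to 8.60 to 9.69 CPM under the label cKO IR. These irradiated libraries carry the Lyz2 level of the other genotype. If their labels were exchanged, WT would go to 8.60 to 9.69 CPM and cKO to 11.0 to 12.1 CPM, and Prkdc would fall in neither.

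Set against the Input, the antibody's enrichment went down after irradiation for 12 members and up for 9, where 23.1% and 25.3% of all genes were called. It went down for Fancb (-0.69), Fancc (-0.60), Nbn (-0.54), Rbbp8 (-0.52), Rad54l (-0.49) and Palb2 (-0.47). It went up for Clspn (0.73), Fanca (0.71), Fanci (0.69), Bard1 (0.43), Brip1 (0.37) and Prkdc (0.35). Clspn shows how the measures differ. Its IP level fell from 127 to 136 CPM to 66.5 to 91.7 CPM and its Input level from 15.4 to 19.7 CPM to 5.97 to 6.69 CPM, so the IP level fell by less and the ratio rose.

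Peaks called by the study in each IP library were merged where the 3 replicates of a label overlapped on the same strand. Of the 12158 consensus peaks in WT Ctrl, 118 lay over 23 members, where 27.6% of the genes tested held a peak. There were 118 peaks over 22 members in cKO Ctrl (25.7% of genes), 62 over 19 with the label WT IR (23.2%) and 60 over 16 with the label cKO IR (20.8%). The totals of all consensus peaks went from 12158 and 10888 without irradiation to 9882 and 9026 with it. Most members had also fallen in the pulled-down RNA after irradiation, and the part of RNA level in these peak counts was not tested. A number of peaks does not measure the share of methylated molecules. A peak was held in every group by 15 members, against 16.0% of all genes.

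**Figure D5:**
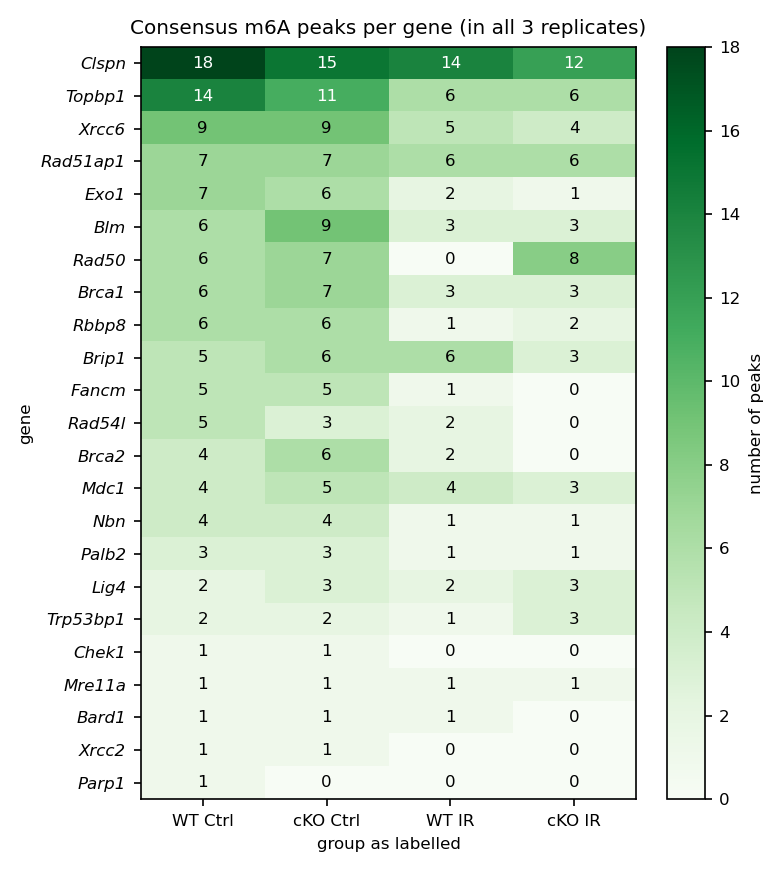
Number of consensus m6A peaks (found in all 3 replicates) over each gene (rows) in the 4 groups as labelled (columns). Clspn, with 18, 15, 14 and 12 peaks, and Topbp1, with 14, 11, 6 and 6, hold the most, and 13 genes hold none.

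Clspn held the most peaks, 18 in WT Ctrl, 15 in cKO Ctrl, 14 under the label WT IR and 12 under cKO IR. Topbp1 held 14, 11, 6 and 6, Xrcc6 9, 9, 5 and 4, and Rad51ap1 7, 7, 6 and 6. Rad50 held 6 and 7 without irradiation, 0 under the label WT IR and 8 under cKO IR. No consensus peak in any group was held by 13 members: Atm, Atr, Chek2, Xrcc3, Fanca, Fancb, Fancc, Fancd2, Fanci, Fancg, Xrcc4, Xrcc5 and Prkdc. Of these, 5 were enriched in WT Ctrl all the same, Fancb and Xrcc3 among them, at up to 6.70 and 4.77 CPM in the WT Ctrl IP libraries.

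Of the 118 peaks in WT Ctrl, 78 (66.1%) had their summit in coding sequence, 25 (21.2%) in introns and 3 (2.5%) in 3′ UTRs. Another 11 (9.3%) lay in exons of another transcript and 1 (0.8%) in a 5′ UTR. These places were not computed for all 12158 peaks, so they do not set the members apart from other genes. The peaks around the windows shown above had summits enriched 12.1-fold to 26.8-fold (Rad51ap1), 11.6-fold to 13.3-fold (Clspn), 10.6-fold to 22.6-fold (Brip1) and 9.75-fold to 12.6-fold (Brca1) over the control in the 3 WT Ctrl libraries. Under the label WT IR the summit of Rad51ap1 was at 10.8-fold to 14.6-fold and that of Clspn at 21.2-fold to 23.4-fold, while Exo1 went from 8.07-fold to 9.96-fold in WT Ctrl to 5.70-fold to 6.42-fold and Topbp1 from 7.55-fold to 9.95-fold to 4.50-fold to 7.14-fold. GGAC was found within 50 bases of the summit in 21.4% of the 112 member peaks searched in WT Ctrl and in 35.2% of all 12158, and GGACT in 2.7% and 11.5%. For GGAC the shares were 26.8% and 35.0% in cKO Ctrl, 27.9% and 35.7% under the label WT IR, and 34.5% and 36.6% under the label cKO IR. For GGACT they were 5.4% and 11.4%, 8.2% and 11.2%, and 8.6% and 12.1%. The peaks of Rbbp8, on chromosome 18, 6 of them in WT Ctrl, were not searched among the members. The shares over all peaks include that chromosome. The search was made in genome sequence on the strand of the peak, so it can run into introns, unlike the windows shown above. No share expected from base composition was computed. Several members, Clspn first, hold many peaks along 1 transcript, so the peaks are not independent.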

How the data were processed

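Per the labels and the study's methods, poly(A) RNA of sorted CD11b+ cells was fragmented, part was kept as Input and part was pulled down with an m6A antibody, and stranded libraries were sequenced in pairs. The authors trimmed reads (Trimmomatic 0.39), aligned them to mm10 with HISAT using the GENCODE annotation, and deposited raw HTSeq counts per gene, not normalized. Their MACS2 peaks, called per library and strand, were deposited with a fold (ratio) over the control at the summit, -log10 p-values and q-values, and a whole-number score. Which Input served as control is not given in the sources used here.

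Each of the 24 count files holds 54446 identifiers, of which 54409 matched GENCODE vM21, and the 37 others took at most 0.0021% of counts. The summary lines at the end of each file name no gene and do not enter library sizes (reads outside genes made up 2.97 to 6.80% and ambiguous reads 2.27 to 2.68% of a library). Input libraries held 65.2 to 83.7 and IP libraries 68.8 to 86.4 M (1e6) gene counts. Values of members are CPM, counts per 1e6, of TMM-scaled libraries, and those of markers are not TMM-scaled.

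The 12 Inputs were fitted together with edgeR 4.0.16 (R 4.3.3, TMM, quasi-likelihood test, 1 coefficient per group, genes with at least 10 counts in 3 libraries, 16090 genes), and all 24 libraries likewise for IP over Input (17373 genes). A call is a p under 0.05 after Benjamini-Hochberg adjustment over all genes tested. The common biological coefficient of variation was 5.57% and 4.98%. On simulated counts for WT IR against WT Ctrl (15618 genes), 49.2% of genes changed 1.25-fold, 68.2% of those changed 1.5-fold and 81.0% of those changed 2-fold were recovered. For IP over Input in WT Ctrl (16264 genes) these shares were 48.4%, 77.8% and 87.5%. Unchanged genes gave 12 false calls in the first simulation and 6 in the second. Each fold was given to only 62 to 66 genes, and all genes had the same spread. In the real data many more genes were called, so these shares do not give the power for the members. Consensus peaks overlapped by at least 1 base on the same strand in all 3 replicates. Sequences come from RefSeq's GRCm38 genome and promoter table (samtools 1.23.1), and the first coding bases of all 36 members read ATG there. Replicates of a group differed by more than sampling noise (chi-square per degree of freedom 3.53 to 37.6), so none was treated as 1 library deposited more than once. This check does not tell separate animals from repeat preparations of a pool.

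Members and lists were chosen with earlier results of these data known. Library values are given for the members with the largest called changes (up to 5 per direction after irradiation and between irradiated genotypes, up to 3 in the other Input contrasts), the 4 highest and 3 lowest of IP over Input, and those with most peaks. Other members named with library values were chosen after their values were seen. Alternatives were RLE size factors, DESeq2 1.42.0, other count filters, only the libraries compared, a replicate block, each library left out, and peaks of at least 4-fold, with larger overlap or in 2 replicates. Exon-length offsets, leaving out the 6 irradiated IP libraries and the means over both genotypes were added after seeing the data.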

Additional observations from a re-analysis of the deposited data

Results flagged for a closer look

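The effect of irradiation on 6 members differed between the genotype labels by the interaction test, as cKO minus WT on the log2 scale. The differences were -0.53 for Atr, -0.41 for Prkdc, -0.39 for Rad50, -0.38 for Mdc1, -0.36 for Atm and 0.83 for Rad51ap1. With offsets adjusted for exon length, Rad50 (-0.33), Mdc1 (-0.25) and Rad51ap1 (0.87) were still called, and Atr, Prkdc and Atm were not. The part of exon length in these differences was not tested beyond that.

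IP over Input differed between cKO Ctrl and WT Ctrl for 9 members, as cKO minus WT on the log2 scale. The differences were 0.66 for Prkdc, 0.47 for Exo1, 0.41 for Fanci, 0.38 for Rad51ap1, 0.32 for Atm, 0.32 for Brca2, 0.20 for Mdc1, 0.19 for Clspn and -0.14 for Rbbp8. The ratio was also higher in cKO Ctrl for 13 of the 15 cycling markers, and its part in these differences was not tested.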

How the results depend on the processing

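Of the calls on members, 16 of 23 in WT IR against WT Ctrl and 18 of 26 in cKO IR against cKO Ctrl were kept under every alternative run, as were 1 of 1 in cKO Ctrl against WT Ctrl, 4 of 10 in cKO IR against WT IR and 3 of 6 in the interaction. For IP over Input the numbers were 33 of 33 in WT Ctrl, 32 of 32 in cKO Ctrl, 30 of 31 in the group labelled WT IR, 34 of 35 in that labelled cKO IR and 3 of 9 for the difference between unirradiated genotypes. They were 28 of 30 for irradiation in IP and 19 of 21 for the irradiation change of the ratio. Exon-length offsets and fits of only the libraries compared were run for the Input contrasts alone. The calls on IP over Input did not face these checks, so the numbers cannot be set against those of the Inputs.

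With offsets adjusted for exon length, the members called higher went from 2 to 0 in WT IR and from 2 to 1 in cKO IR, cKO Ctrl against WT Ctrl had 2 lower and 1 higher, cKO IR against WT IR went from 8 to 4 lower and from 2 to 5 higher, and the interaction from 5 to 2 lower and from 1 to 6 higher. Between irradiated genotypes Atr (0.07) and Trp53bp1 (0.03) then changed sign, as did Topbp1 (0.18), which was called lower (-0.10) with at least 50 counts in 3 libraries. In cKO Ctrl against WT Ctrl the members called lower were 3 with RLE size factors, 3 with DESeq2, 2 with every gene of at least 1 count, 3 with at least 50 counts in 3 libraries and 4 with only the 6 libraries compared, and 1 member was higher with the filter of 1 count and with the 6 libraries. The interaction had 3 members higher with DESeq2 and 3 with the filter of 1 count. In the ratio between unirradiated genotypes, 0 members were lower with RLE, DESeq2, the filter of 1 count or without the 6 irradiated IP libraries, and 14 were higher with DESeq2. With peaks of at least 4-fold, 10 members held one in the group labelled WT IR. The cause was not tested in these cases, apart from what each setting changes by its construction.

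Leaving out 1 library at a time gave 17 to 21 members lower and 1 to 2 higher in WT IR, 21 to 23 and 1 to 3 in cKO IR, 1 to 2 and 0 to 1 in cKO Ctrl against WT Ctrl, 6 to 10 and 1 to 3 in cKO IR against WT IR, and 5 to 6 and 1 to 3 in the interaction. IP over Input had 27 to 28 members higher and 6 lower in WT Ctrl, 28 and 4 in cKO Ctrl, 27 to 28 and 3 to 4 in the group labelled WT IR, and 28 and 6 to 8 in that labelled cKO IR. The ratio between unirradiated genotypes had 0 to 1 lower and 6 to 10 higher, irradiation in IP 27 to 29 lower and 1 to 2 higher, and the irradiation change of the ratio 11 to 13 lower and 9 to 11 higher. Members with a peak in the other 2 replicates numbered 23 to 24, 22 to 25, 19 to 21 and 16 to 19.

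Samples with the same replicate number did not deviate together (correlations of -0.04 to 0.04), and the main fits used no pairing. With 3 libraries per group this check cannot exclude that Input and IP of the same number come from the same RNA. With a replicate block the interaction had 2 members higher in place of 1, and the other counts stayed within 1.5 times of those without it. Depth limits the members at the lowest levels, such as Xrcc3 and Fancb, whose SEs in WT IR against WT Ctrl were 0.34 and 0.31 on the log2 scale.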
